A study of Homo sapiens with 5 samples.

Results

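The genes described here encode the MCM helicase and the proteins that license origins of DNA replication. They are MCM2, MCM3, MCM4, MCM5, MCM6, MCM7, MCM10, CDC6 and ORC1. ZBTB7A binding was read at these 9 genes as peaks whose summit, the base of highest signal, lay within 25 kb of the gene's span on the hg19 build. By this rule 77 of 196770 peaks in 3 peak lists belonged to the 9 genes, 18 of 37782 in CSS, 19 of 34120 in DHT and 40 of 124868 in FBS. The spans are given to the nearest 1 kb, so distances from a gene start are no more exact than that. The window around each gene also takes in parts of its neighbours.

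The protein mapped was ZBTB7A (LRF, Pokemon), a BTB domain transcription factor that reads DNA with zinc fingers. Its binding was measured by ChIP-seq, in which DNA bound by the protein is pulled down with an antibody and sequenced, in VCaP, an established prostate cancer cell line that responds to androgen. CSS stands for cells in 5% hormone-depleted serum given vehicle for 4 h (2 libraries). DHT stands for the same medium with 10 nM of the androgen dihydrotestosterone for 4 h (2 libraries), and FBS for cells in routine 10% full serum (1 library). The FBS label repeats the treatment text of the other libraries, and that these cells had no added DHT is taken from the culture condition. All 5 libraries used the same cell line and antibody, and no genotype or knockdown differs between them. A single list stands for each condition, so no spread between replicates can be had and no test between conditions was possible. Differences between lists below are therefore descriptions. How deep each library was is unknown. The longer FBS list cannot be told apart from a deeper or cleaner library, and a peak missing from a list may lie just under its threshold.

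Replication is licensed before S phase. ORC1, the largest subunit of the origin recognition complex, marks origins on chromatin. CDC6 joins it there and, with CDT1, loads the ring-shaped helicase built of MCM2, MCM3, MCM4, MCM5, MCM6 and MCM7. MCM10 acts later, when the loaded helicase is switched on. Most of these genes are textbook targets of E2F, the transcription factors held in check by the RB protein, and they are transcribed as cells leave G1.

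Promoter sequences of 7 of the 9 genes (not MCM4 or MCM5) were matched by symbol in RefSeq on GRCh38.p14. Sequences of 5 are shown for what the ZBTB7A data put there. MCM2, MCM3, MCM6 and ORC1 had a start peak in full serum and in only 1 of the hormone-depleted conditions, and CDC6 had none in any list. Each run holds the 250 bases before the gene start, 5′ to 3′ on the gene's strand. Capitals mark the E2F words TTCCCGC and TTGGCGC and the NF-Y word CCAAT, on either strand. The promoters are on another build than the peaks, and positions were not carried from one to the other, so whether a printed base lies under a peak was not read from them.
MCM2 promoter (chr3:127598161-127598410, plus strand): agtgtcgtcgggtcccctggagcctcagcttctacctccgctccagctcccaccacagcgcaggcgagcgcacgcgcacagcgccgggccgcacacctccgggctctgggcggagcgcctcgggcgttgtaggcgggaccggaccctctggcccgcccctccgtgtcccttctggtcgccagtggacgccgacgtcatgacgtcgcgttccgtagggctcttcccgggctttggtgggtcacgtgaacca
MCM6 promoter (chr2:135876444-135876693, minus strand): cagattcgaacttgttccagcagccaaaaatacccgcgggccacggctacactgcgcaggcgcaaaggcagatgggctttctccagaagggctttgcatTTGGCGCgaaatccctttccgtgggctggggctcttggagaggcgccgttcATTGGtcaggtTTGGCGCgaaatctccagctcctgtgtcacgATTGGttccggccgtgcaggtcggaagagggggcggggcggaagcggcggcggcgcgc
MCM3 promoter (chr6:52284743-52284992, minus strand): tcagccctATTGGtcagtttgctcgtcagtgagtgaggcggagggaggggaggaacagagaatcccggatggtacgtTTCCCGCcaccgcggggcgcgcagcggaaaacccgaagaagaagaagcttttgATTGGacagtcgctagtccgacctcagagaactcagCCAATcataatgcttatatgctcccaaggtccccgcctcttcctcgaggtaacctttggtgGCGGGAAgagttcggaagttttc
ORC1 promoter (chr1:52404424-52404673, minus strand): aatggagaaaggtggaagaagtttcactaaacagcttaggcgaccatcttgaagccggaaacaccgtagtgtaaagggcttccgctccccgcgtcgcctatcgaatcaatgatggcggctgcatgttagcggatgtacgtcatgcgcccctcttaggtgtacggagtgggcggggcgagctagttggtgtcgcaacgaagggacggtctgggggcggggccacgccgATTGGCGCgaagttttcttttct
CDC6 promoter (chr17:40287629-40287878, plus strand): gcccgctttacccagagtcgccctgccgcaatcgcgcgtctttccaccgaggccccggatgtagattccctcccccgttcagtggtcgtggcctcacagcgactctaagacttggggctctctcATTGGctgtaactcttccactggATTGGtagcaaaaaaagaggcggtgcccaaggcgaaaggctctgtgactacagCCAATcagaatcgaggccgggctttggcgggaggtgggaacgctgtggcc

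The words were counted on both strands in the window of 300 bases that ends 50 bases after the start. An E2F word was found in 5 of the 7 genes with a promoter sequence, or 6 of their 9 promoter entries (66.7%). Of all 35116 promoters of the same length, 9.23% held one. For the other words below, the counts among the 7 are of genes and the shares of all promoters are of entries. MCM6 held TTGGCGC at 2 places, starting 151 and 89 bases before the gene start, and CCAAT at 2 places between and after them. MCM3 held TTCCCGC at 2 places and CCAAT at 3. In ORC1 a single TTGGCGC lay 22 bases before the start and overlapped a CCAAT match, as one also did in an MCM7 promoter. CDC6, without a start peak, also held an E2F word, TTGGCGC 9 bases after the start and so outside the printed run, and 3 CCAAT matches. The promoters of MCM2 and MCM10 held no E2F word of these spellings, and the run of MCM2 therefore has no capitals. MCM7 has 3 promoter entries, of which 2 held an E2F word. CCAAT was found in 6 of the 7 genes, not in MCM2, and in 34.6% of all promoters. The ETS word CCGGAAG was found in none of the 7 genes and in 10.3% of all promoters. GACCAC, a part of the motif that ZBTB7A selects in vitro, was found in CDC6 alone among the 7 genes and in 10.5% of all promoters. The SP and KLF word GGGCGG was found in 5 of the 7 genes, not in MCM3 or CDC6, and in 45.0% of all promoters. A match is a description of letters, not of binding.

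ZBTB7A peaks were called at the starts of more of these genes in full serum than in hormone-depleted serum. Among peaks with a fold enrichment of 5 or more this did not hold. When each list was held to its top 34120 peaks, the length of the shortest, FBS stayed above CSS but not above DHT. A summit within 2 kb of the start was present for 8 of 9 genes in FBS, all but CDC6. It was present for 5 in CSS (MCM2, MCM3, MCM4, MCM7 and MCM10) and for 5 in DHT (MCM4, MCM6, MCM7, MCM10 and ORC1). With lists of equal length the counts were 3 in CSS, 5 in DHT and 4 in FBS. For comparison, 14.1% of the genome's 4 kb tiles held an FBS summit, 4.39% a CSS summit and 4.00% a DHT summit. These tiles cover chromosomes 1 to 22 and X without regard to genes, so they do not show how these starts compare with other gene starts. The windows within 2 kb of the 9 starts make up 5.29% of the length examined and held 23 of the 77 peaks (29.9%). These counts pool the lists, so a site called in several lists counts more than once. After overlapping peaks were merged, 13 of 52 regions held a start peak. By q-value the median start peak lay above 40.1% of its list in CSS, 40.9% in DHT and 70.9% in FBS. A start peak that reached a −log10 q of 5 was left at 1 gene in CSS (MCM4), 2 in DHT (MCM6 and MCM7) and 5 in FBS, where 48.7%, 53.4% and 40.9% of all peaks in the lists reach that value. At a fold enrichment of 5 or more the counts were 3, 4 and 1 genes, with MCM6 the gene left in FBS, where 63.2%, 71.5% and 32.1% of the lists pass. These counts are of genes and the list shares are of peaks, so they are not like for like.

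**Figure D1:**
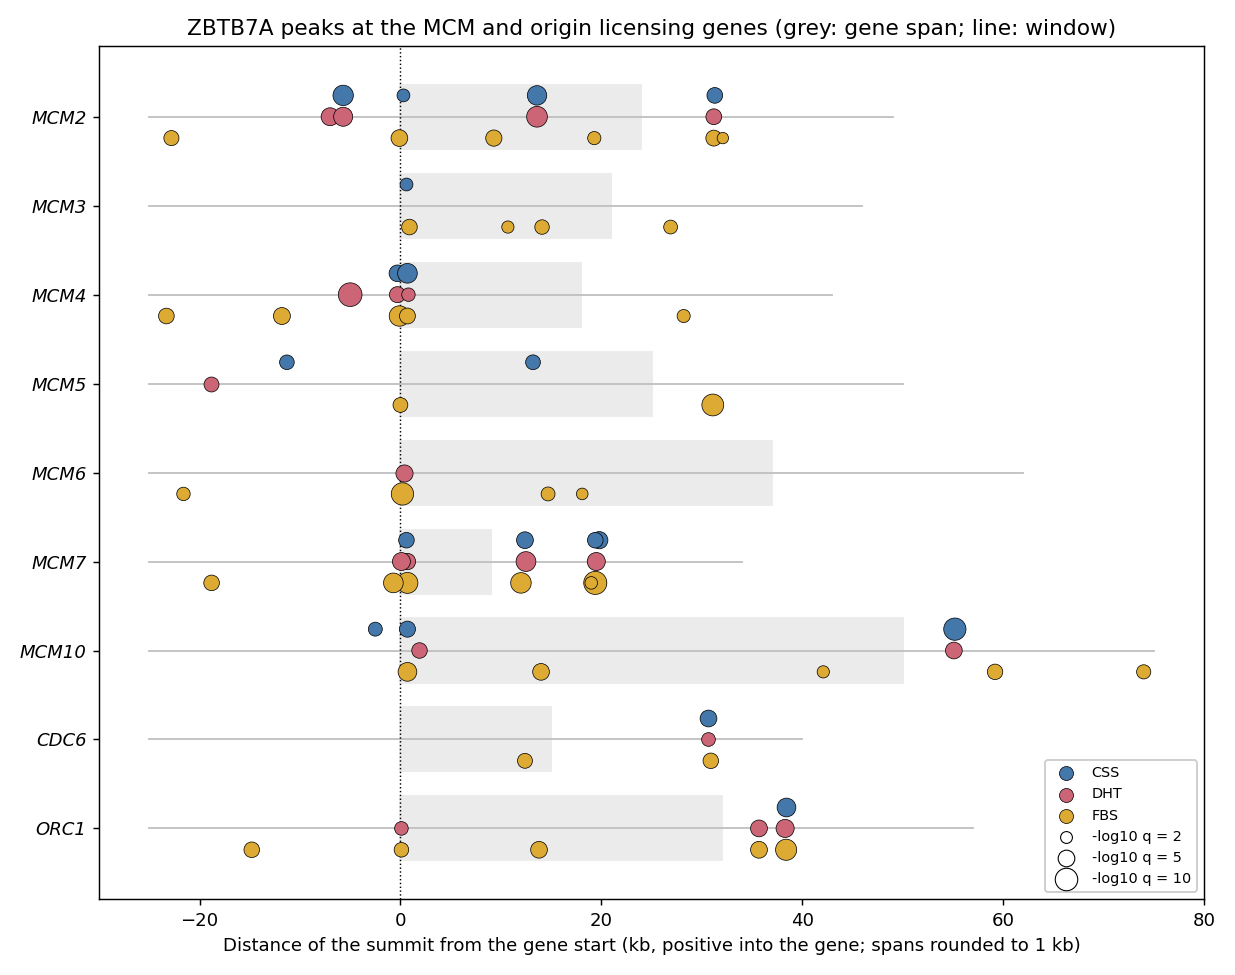
Each row is 1 gene. The horizontal axis is the distance of a peak summit from the gene start in kb, points are peaks coloured by list, larger points have a higher −log10 q, the grey box is the gene span and the line the window. Every row but CDC6 has a point at the start, and the FBS row of each gene holds from 2 to 7 peaks.

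ORC1 had a start peak in DHT and FBS and none in CSS. The DHT peak at chr1:52869774-52869971 had a fold enrichment of 4.17 and a −log10 q of 2.97, above 8.80% of its list. The FBS peak at chr1:52869647-52870333 had a fold enrichment of 3.94 and a −log10 q of 3.58, above 30.7% of its list. Both were thus among the weaker peaks of their lists, although their summits lay only 58 bp apart. Each fold enrichment and q-value is the authors' value for that peak against the background of its own list, so it ranks peaks within a list and not between lists. The most significant ORC1 peak was in each list not at the start but 6.3 to 6.4 kb past the end of the span, on the side of CC2D1B, the next protein-coding gene. There the fold enrichments were 6.28 (CSS), 6.00 (DHT) and 5.30 (FBS), and the peaks lay above 68.0%, 62.6% and 92.8% of their lists. A second site on that side, 3.7 kb past the end, was called in DHT (5.64) and FBS (4.24), with summits 9 bp apart, and not in CSS. FBS alone had a peak 13.8 kb into the gene (5.19) and another 14.8 kb before the start (4.80), on the side of PRPF38A.

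CDC6, the loader, was the gene of the 9 with no start peak. Its window held 4 peaks, the fewest of the 9. The FBS peak at chr17:38456246-38456460 lay inside the span, 12.4 kb from the start, with a fold enrichment of 4.24 and a −log10 q of 3.80. The other 3 peaks, 1 in each list, formed a single site 15.6 to 15.9 kb past the end on the side of RARA, the retinoic acid receptor alpha gene. Its fold enrichments were 5.79 (CSS), 4.51 (DHT) and 3.26 (FBS), above 51.6%, 12.2% and 39.5% of the lists. The site was therefore of middle rank in CSS and low rank in DHT.

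MCM2, a helicase subunit that also binds histones, had a start peak in CSS and in FBS that did not overlap. The CSS peak at chr3:127317227-127317417 was weak, with a fold enrichment of 3.98 and a −log10 q of 2.53, above 5.74% of its list. The FBS peak at chr3:127316694-127317141 had a fold enrichment of 4.04 and a −log10 q of 5.04, above 59.5% of its list. Their summits were 478 bp apart. Stronger peaks in hormone-depleted serum lay away from the start. A site 13.6 kb into the gene had a fold enrichment of 7.04 in CSS and 7.71 in DHT, with summits 34 bp apart, and it was the top ranked MCM2 peak in DHT. The top ranked MCM2 peak in CSS lay 5.7 kb before the start, on the side of TPRA1, with a fold enrichment of 7.02 in CSS and 6.53 in DHT. No FBS peak overlapped either site: the nearest FBS summit was 4351 bp or more away. DHT had another peak 7 kb before the start (6.09) without a CSS or FBS partner. Past the end of the gene, on the side of PODXL2, a site was called in each list, with fold enrichments of 5.35 (CSS), 5.42 (DHT) and 4.12 (FBS). The other 4 FBS peaks of MCM2 had fold enrichments of 2.77 to 3.75.

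MCM3 had a start peak in CSS and FBS and no peak at all in DHT. The CSS peak at chr6:52149269-52149459 had a fold enrichment of 3.98 and a −log10 q of 2.53, the same values and width (191 bp) as the CSS start peak of MCM2. The FBS peak at chr6:52149012-52149320 was of middle rank, with a fold enrichment of 4.80 and a −log10 q of 4.26, above 40.4% of its list. The 2 overlapped, with summits 242 bp apart. The nearest DHT summit to the CSS one was 77412 bp away. FBS had 3 more peaks, at 10.7, 14.1 and 26.9 kb from the start, of fold enrichment 3.49, 4.36 and 3.99.

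MCM4 was the gene with the most peaks at its start, 2 sites in each list. It lies next to PRKDC, which encodes the catalytic subunit of DNA-dependent protein kinase. At the site just before the start edge, the CSS peak chr8:48872445-48872822 had a fold enrichment of 5.31, the DHT peak chr8:48872502-48872804 of 5.22 and the FBS peak chr8:48872800-48873203 of 4.44. These peaks lay above 51.2%, 40.9% and 90.8% of their lists. The CSS and DHT summits were 22 bp apart, and the FBS summit lay 263 bp from the CSS summit, towards the gene. At the second site, about 0.7 kb into the span, the fold enrichments were 6.58 (CSS), 4.37 (DHT) and 3.42 (FBS). Its rank differed more: above 73.1% of the CSS list, 8.34% of the DHT list and 52.8% of the FBS list. The strongest DHT peak of the 9 genes, chr8:48867808-48868063, also belonged to MCM4, 5 kb before the start on the PRKDC side. It had a fold enrichment of 8.93 and a −log10 q of 11.2, above 92.0% of its list, and no CSS or FBS peak overlapped it. The nearest CSS summit was 4721 bp away. FBS had 3 further peaks, 11.8 and 23.3 kb before the start and 28.2 kb after it, of fold enrichment 3.35 to 4.45.

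MCM5 had the least regular pattern, since none of its 5 peaks had a partner in another list. The FBS start peak, chr22:35795835-35796106, had a fold enrichment of 3.41 and a −log10 q of 3.73, above 32.9% of its list. The top FBS peak of the gene, chr22:35826947-35827350, lay 6.1 kb past the end with a fold enrichment of 5.50, above 93.9% of its list. The CSS peaks lay 11.3 kb before the start (4.73), on the side of HMOX1, the heme oxygenase gene, and 13.2 kb inside (4.78). The DHT peak lay 18.9 kb before the start on the same side (5.01). All CSS and DHT peaks of MCM5 were below the middle of their lists.

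MCM6, which lies beside the lactase gene LCT, had a wide start peak in DHT and in FBS and no CSS peak in its window. The FBS peak, chr2:136633284-136634033, was 750 bp wide with a fold enrichment of 6.13 and a −log10 q of 9.83, above 94.9% of its list. It was the highest ranked of the start peaks in FBS. The DHT peak, chr2:136633392-136634101, was 710 bp wide with a fold enrichment of 6.02 and a −log10 q of 5.37, above 51.9% of its list, and its summit was 229 bp from the FBS one. The nearest CSS summit to the DHT one was 103143 bp away. Its promoter is the one shown with 2 copies of TTGGCGC. The other 3 FBS peaks were weak, with fold enrichments of 3.17 to 4.03.

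MCM7, whose intron hosts the microRNAs MIR25, MIR93 and MIR106B, had the most peaks, 15 in a window of 59 kb. A start site was called in each list about 0.6 to 0.7 kb inside the span. The CSS peak chr7:99698128-99698474 had a fold enrichment of 5.12, the DHT peak chr7:99698152-99698349 of 5.20 and the FBS peak chr7:99698130-99698436 of 4.01, above 38.2%, 43.5% and 91.8% of their lists. The DHT and FBS summits were 15 bp apart. A second start peak differed in place: in DHT it was chr7:99698752-99699145 (5.89) and in FBS chr7:99699553-99699840 (3.87), on the side of AP4M1, and the 2 did not overlap. The remaining MCM7 sites lay mostly past the end, on the side of COPS6. At 3.0 to 3.5 kb past the end the fold enrichments were 5.79 (CSS), 7.26 (DHT) and 4.88 (FBS). The CSS and DHT peaks overlapped. The FBS peak lay nearby without overlapping them, its summit 317 bp from the CSS summit. At 10.4 to 10.9 kb past the end were the top ranked peaks of the window in CSS (5.93) and FBS (5.04), and a DHT peak of 6.45. That FBS peak, chr7:99679418-99679799, had a −log10 q of 10.6 and was above 96.0% of its list, the highest rank of any FBS peak at the 9 genes.

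MCM10, the factor that acts on the loaded helicase, had a start peak in each list, but not at the same place. The CSS peak chr10:13203640-13203830 had a fold enrichment of 5.49, above 42.0% of its list. The FBS peak chr10:13203226-13203837 had a fold enrichment of 4.98, above 82.3% of its list, and its summit was 7 bp from the CSS summit. The DHT peak chr10:13204909-13205106 (5.24, above 30.1% of its list) lay 1.9 kb into the gene, 1263 bp from the CSS summit, and fell outside when the limit was 1 kb. The top CSS peak of the 9 genes, chr10:13258031-13258248, lay 5.2 kb past the end of MCM10 on the side of UCMA. It had a fold enrichment of 8.37 and a −log10 q of 9.80, above 84.7% of its list. Its DHT partner was of middle rank (5.66, above 47.7% of the list), with a summit 84 bp away, and the nearest FBS summit was 3999 bp away. CSS also had a weak peak 2.5 kb before the start (4.62). FBS had 4 more peaks, of fold enrichment 3.31 to 5.23.

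**Figure D2:**
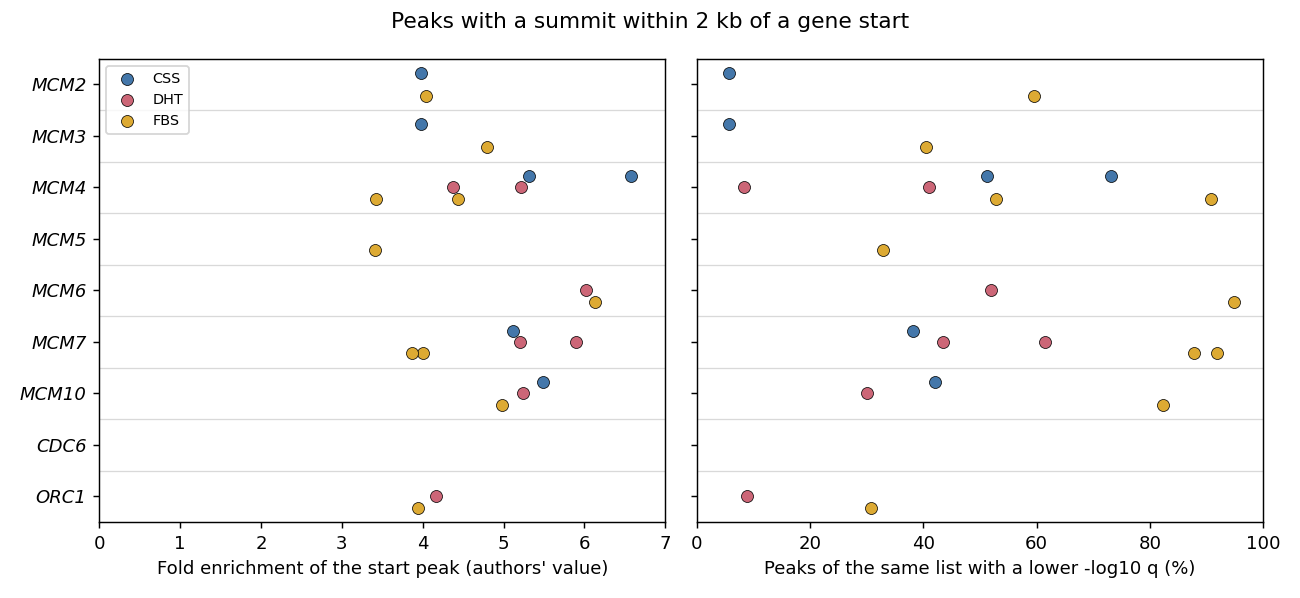
Points are the 23 peaks with a summit within 2 kb of a gene start, by gene and list. The left axis is the authors' fold enrichment and the right axis the percent of the same list with a lower −log10 q. MCM6, MCM7 and MCM4 hold FBS points above 90% of the list, while the CSS points of MCM2 and MCM3 sit at 5.74%.

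Set against each list as a whole, the peaks of these genes were near the middle by q-value, and in FBS they were lower in fold enrichment. The median member peak lay above 46.6% of the CSS list, 49.2% of the DHT list and 40.4% of the FBS list. Tied peaks do not count as below. In FBS the median −log10 q was 4.26 both for member peaks and over the list. Median fold enrichment was 5.42 against 5.58 over the list in CSS, 5.66 against 5.70 in DHT and 4.02 against 4.56 in FBS. By fold enrichment the median FBS member peak lay above only 28.0% of its list, and 6 of 40 FBS peaks reached a fold enrichment of 5, against 32.1% of the list. In CSS 13 of 18 and in DHT 16 of 19 did, against 63.2% and 71.5%. Strong peaks, of −log10 q at least 10, numbered 0 of 18 in CSS, 1 of 19 in DHT (at MCM4) and 1 of 40 in FBS (at MCM7), where 14.5%, 11.8% and 4.92% of the lists were as strong. By q-value, start peaks had a higher median rank than the other member peaks in FBS and a lower one in CSS and DHT. In FBS the 10 start peaks lay above a median of 70.9% of the list and the 30 other member peaks above 37.1%. In CSS the medians were 40.1% for 6 start peaks and 51.8% for 12 others, and in DHT 40.9% for 7 and 61.7% for 12. By fold enrichment the FBS start peaks did not stand out, with a median of 4.03 against 4.01 elsewhere. The median width at starts and elsewhere was 404 and 256 bp in FBS, 269 and 202 bp in CSS, and 226 and 271 bp in DHT. Within 2 bp of the narrowest width in their list were 3 of 6 CSS and 3 of 7 DHT start peaks, against 26.2% and 24.8% of the lists. In FBS 0 of the 10 start peaks were that narrow, against 24.1% of the list. The groups overlap in each list, and peaks of 1 gene are not independent of each other.

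**Figure D3:**
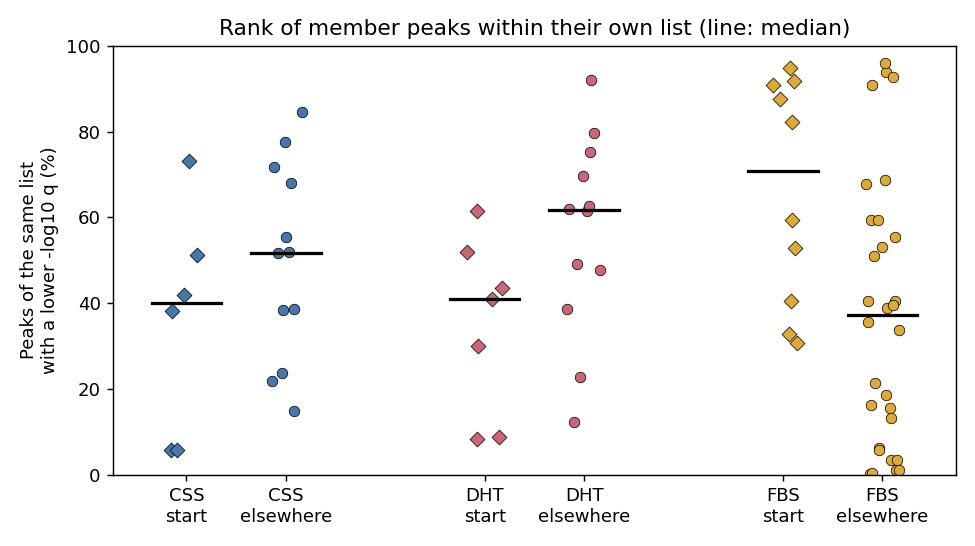
The vertical axis is the percent of the same list with a lower −log10 q for each member peak. Diamonds are start peaks, circles are peaks elsewhere in the windows and lines are medians. The FBS start peaks have a median of 70.9% against 37.1% elsewhere, and in CSS and DHT the start peaks have the lower median.

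The comparison of vehicle with DHT asked which sites were called with and without androgen. Of the 18 CSS member peaks, 12 (66.7%, exact Clopper-Pearson 95% interval 41.0 to 86.7%) overlapped a DHT peak, against 56.8% over the whole CSS list. In the other direction, 11 of 19 DHT peaks (57.9%, 33.5 to 79.7%) had a CSS partner, against 63.9% of the DHT list. Both shares are near those of the lists, and the intervals, which cover counting error only, include them. These intervals, and those for full serum below, treat peaks as independent, which peaks of the same gene are not. The CSS member peaks that reached a −log10 q of 5 numbered 8, and all 8 had a DHT partner, against 78.9% of all CSS peaks of that strength. Among the 11 DHT peaks of that strength 6 had a CSS partner, against 80.1% of the list, and the start peak of MCM6 and the peak 5 kb before MCM4 were among those without one. At the gene starts, an overlapping CSS and DHT peak was seen at MCM4 and MCM7 only.

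The comparison with full serum asked which of these sites were also bound in FBS. An FBS partner was present for 10 of 18 CSS peaks (55.6%, 30.8 to 78.5%) and 10 of 19 DHT peaks (52.6%, 28.9 to 75.6%), against 44.1% and 48.2% of the lists. Of the 40 FBS peaks, 10 (interval 12.7 to 41.2%) had a CSS partner and 11 (interval 14.6 to 43.9%) a DHT partner, against 13.5% and 13.3% of the FBS list. After merging overlapping peaks, the 77 peaks formed 52 regions. Of these, 7 (13.5%) held a peak in each list, against 7.67% of all 151256 regions, and 27 (51.9%) were seen in FBS alone, against 68.4%. The 7 common regions were the pair at the start of MCM4, the start of MCM7, and 4 sites past the ends of MCM2, MCM7, CDC6 and ORC1, on the sides of PODXL2, COPS6, RARA and CC2D1B. The 4 regions in CSS and DHT but not FBS (7.69%, against 5.97% of all regions) lay at MCM2 (2), MCM7 and MCM10, and none was near a start. The 3 regions in DHT and FBS only (5.77%, against 2.61%) included the starts of MCM6 and ORC1. Both regions in CSS and FBS only (3.85%, against 2.69%) were starts, of MCM3 and MCM10.

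Peaks were denser at these genes than over the genome, by ratios of 2.19 (CSS), 2.55 (DHT) and 1.44 (FBS). The 9 windows, 681 kb in all, held 26.4 peaks per Mb in CSS (exact Poisson 95% interval 15.7 to 41.8), 27.9 in DHT (16.8 to 43.6) and 58.7 in FBS (42.0 to 80.0). Over chromosomes 1 to 22 and X, without regard to genes, there were 12.1, 10.9 and 40.7 per Mb. The intervals cover counting error only and are no test of enrichment, since peaks of 1 gene are not independent of each other. Among peaks with a fold enrichment of 5 or more the FBS direction turned, at 8.81 per Mb at these genes against 13.1 over the genome, while CSS (19.1 against 7.66) and DHT (23.5 against 7.84) kept theirs. At least 1 peak was present in 8 of 9 windows in CSS, 8 in DHT and 9 in FBS, where 51.2%, 48.2% and 75.8% of 75 kb tiles of the genome held one. The 500 kb on each side of the windows held 17.4 (CSS), 13.7 (DHT) and 62.2 (FBS) peaks per Mb, so the FBS density at these genes was close to that of their surroundings (ratio 0.944), against 1.52 in CSS and 2.04 in DHT. This local comparison was chosen after the data were seen. The window was denser than its surroundings for 6 (CSS), 7 (DHT) and 4 (FBS) of the 9 genes. The MCM2, MCM7 and MCM10 windows stood above their surroundings in each list. For MCM2 and MCM7 there were 5.41 and 6.78 peaks per 100 kb in CSS, the same in DHT, and 8.11 and 11.9 in FBS. The MCM10 margin was small in FBS, at 5.00 against 4.80. The CDC6 window lay below its surroundings in each list, at 1.54 against 3.20 in CSS, 1.54 against 2.50 in DHT and 3.08 against 8.60 in FBS. The MCM4 window was above its surroundings in CSS and DHT but not in FBS, where its surroundings held 105 peaks against 18 in CSS and 7 in DHT.

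**Figure D4:**
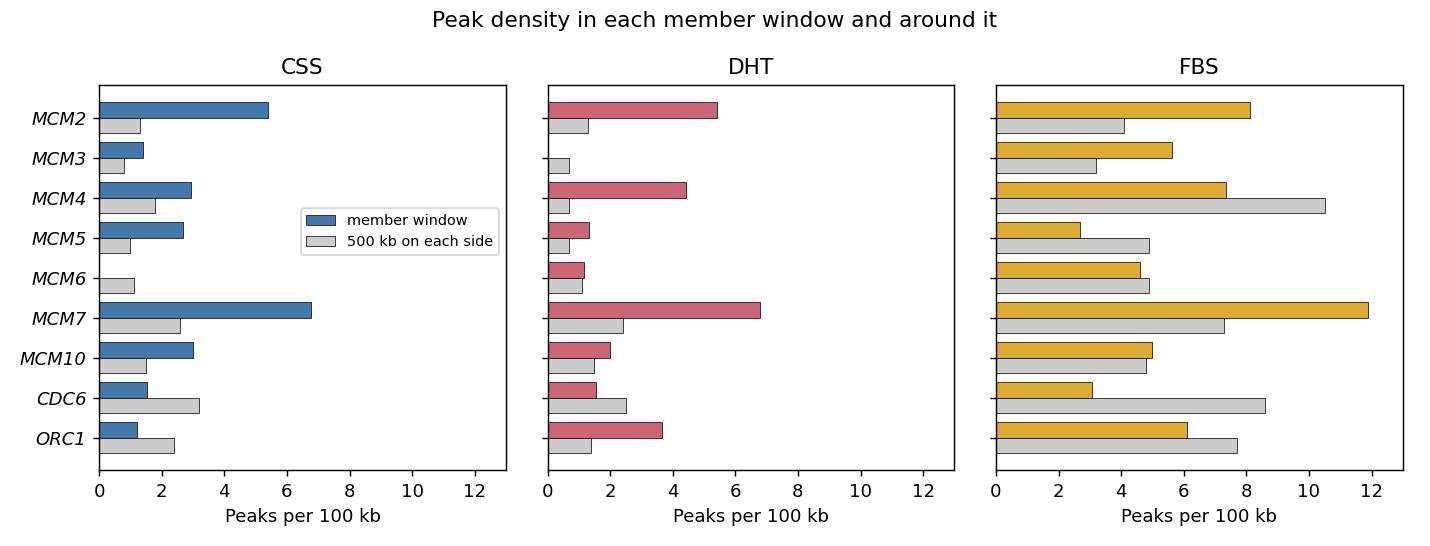
Bars give peaks per 100 kb in each gene's window (coloured) and in the 500 kb on each side of it (grey), with 1 panel per list. The MCM2, MCM7 and MCM10 windows exceed their surroundings in each panel and the CDC6 window falls below its own in each.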

How the data were processed

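ZBTB7A ChIP-seq peaks were taken from 3 narrowPeak lists, 1 each for CSS, DHT and FBS. The submitters' processing notes name BWA 0.7.2-r351, SAMtools 0.1.18, MACS2 2.0.10.20131216 and hg19 (GRCh37). The control library, threshold, and the way the 2 libraries of CSS and of DHT were combined were not given in the sources used here. Each peak's fold enrichment (a ratio over background), −log10 q, score and summit offset were deposited by the authors. All depend on library depth, which is unknown, and were ranked only within a list. The same cut-offs of fold enrichment and −log10 q were applied to each list, and they pass different shares of each list.

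Peaks were assigned to a gene by summit, within 25 kb of its span. The start is the span edge at the gene's 5′ end. Partners overlap by at least 1 bp. Start positions printed have a first base of 1. Calculations were made in Python 3.11.15 with pandas 2.3.3, numpy 2.4.6 and scipy 1.17.1, and plots with matplotlib 3.10.9. Window and overlap steps were tested on simulated data, and overlap counts equalled those from bedtools 2.31.1 in 6 of 6 list pairs.

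The genes, rules and words were chosen with earlier results of these data known. All 9 genes are named, each with its start peaks and its top ranked peak per list. Neighbours are the next protein-coding genes in a RefSeq table (GRCh38.p14), used for names only. No hg19 annotation or sequence was used, so other licensing genes such as CDT1 were not analysed here, and exons and introns were not assigned. Alternatives for the window, thresholds, overlap and ranking are given at the end.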

Additional observations from a re-analysis of the deposited data

How the results depend on the processing

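For the 9 genes together there were 75 alternative values of the counts, shares, ranks and densities. Of these, 47 stayed within 1.5 times the count or within the interval of the reported value and 28 moved beyond it. For the peak counts of single genes, 105 alternative values stayed within 1.5 times the count and 84 moved. Counts that were 0 and stayed 0, as for MCM6 in CSS and MCM3 in DHT, are among the 105. With windows of 50 kb, the CSS and FBS counts of member peaks were 29 and 66. For peaks that reach a −log10 q of 5, the counts were 8 in CSS, 11 in DHT and 14 in FBS (also the counts of strong peaks at that threshold), and at 10 they were 0, 1 and 1. FBS kept 6 peaks at a fold enrichment of at least 5 (8.81 per Mb) and 9 when each list was held to the length of the shortest, 34120 peaks. Genes with a start peak numbered 1, 2 and 5 in CSS, DHT and FBS at a −log10 q of 5 or more. At a fold enrichment of at least 5 they numbered 3, 4 and 1, and with lists of equal length 3, 5 and 4, so under both DHT was above FBS. With an overlap of 50% of both peaks, FBS partners were present for 27.8% of CSS and 26.3% of DHT peaks, and 12.5% of FBS peaks had a CSS and 12.5% a DHT partner. DHT partners of CSS peaks were 38.9% with summits within 100 bp and 100% at a −log10 q of at least 5. Ranked by fold enrichment, the median FBS member peak lay above 28.0% of its list. These alternatives use fewer peaks, wider windows or a stricter overlap by construction, save the ranking. Why the values moved was not tested for any of them. No paired analysis was possible because each condition has a single list, with no values for the separate CSS and DHT libraries. Leaving out a library was not possible either.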
